A study of Bos taurus with 18 samples.

Results

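The host genes of actin assembly followed here, 10 of the 2220 host genes in the table of circular RNAs (circRNAs), were compared across MAC-T cells with and without inactivated bacteria. They are the formins FMN1, FMNL2 and DIAPH3, the actin branching factors CTTN and ABI1, the exchange factors TIAM1 and AKAP13, the adaptors NCK1 and CRK, and the kinase SLK. They were taken by gene symbol, and every circRNA and every m6A peak that the deposited tables assign to them was included, which gave 30 of 3914 circRNAs and 71 of 5966 peaks. MAC-T is a bovine mammary epithelial line that was immortalized. Cells were seeded at 200000 per well, cultured for 12 h, and then kept for 24 h without bacteria (control group), with heat-inactivated *Staphylococcus aureus* (*S. aureus* group) or with heat-inactivated *Escherichia coli* (*E. coli* group) at a multiplicity of infection of 10. Each group had 3 replicate wells of this cell line, and each of the 9 wells gave an input library and a library immunoprecipitated for m6A (IP), 18 libraries in all.

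Actin filaments carry cell shape, adhesion and the uptake of particles at the cell surface. Formins add actin at the fast-growing end of unbranched filaments, whereas the Arp2/3 complex starts branches after activation by factors such as the WAVE complex. Small GTPases switch these machines on, exchange factors load the GTPases, and adaptors with SH2 and SH3 domains bring the parts to phosphorylated receptors. These roles, and those given for each gene, are known mainly from human and mouse cells. A circRNA arises when a downstream splice site of such a gene is joined to an upstream one, and reads across this back-splice junction count it. m6A is a methyl mark on adenosine, and a peak is a stretch where IP reads exceed the input.

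Input libraries held 1529 to 2057 junction reads in the control wells, 361 to 402 in the *S. aureus* wells and 909 to 962 in the *E. coli* wells, and the IP libraries gave 1138 to 1358, 27 to 29 and 645 to 857 peaks. The *S. aureus* group thus had the lowest totals in all its wells. Its input libraries held 74087654 to 82429030 clean reads, against 69033572 to 81506016 in control and 61407072 to 64304914 in *E. coli*. Junction reads were thus a smaller share of the clean input reads in *S. aureus*, and the cause was not tested. Changes in cell number and in RNA per cell cannot be told apart in such bulk libraries. The epithelial markers CDH1, GRHL2 and DSP had circRNAs (3 of 14 markers listed, 8 reads in control, 1 in *S. aureus* and 6 in *E. coli*), whereas none of the listed keratins had one. None of 6 immune cell markers and none of 9 fibroblast and endothelial markers had a circRNA.

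Together the 10 genes had 54 junction reads in control, 15 in *S. aureus* and 40 in *E. coli*. Relative to control, the mean reads per well were -1.85 (*S. aureus*) and -0.43 (*E. coli*) on the log2 scale. By well, these were 5, 20 and 29 reads in control, 1, 13 and 1 in *S. aureus* and 11, 8 and 21 in *E. coli*. Per 1000 junction reads of the same library, the control wells gave 3.27, 11.7 and 14.1, the *S. aureus* wells 2.60, 36.0 and 2.49, and the *E. coli* wells 12.0, 8.32 and 23.1. The groups overlapped, with means of 9.68 ± 5.68 (SD, n = 3), 13.7 ± 19.3 (SD, n = 3) and 14.5 ± 7.70 (SD, n = 3). *S. aureus* well 2 held 13 of the 15 reads of its group, and its share lay far above those of the other wells of the group, with a 95% Wilson interval of 21.2 to 60.6 per 1000 that covers counting error only. Its total of 361 junction reads was close to the 384 and 402 of the other wells. Without it the group kept 2 reads, or 2.54 per 1000, so that every *S. aureus* value below with more than 1 read rests on this well.

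**Figure D1:**
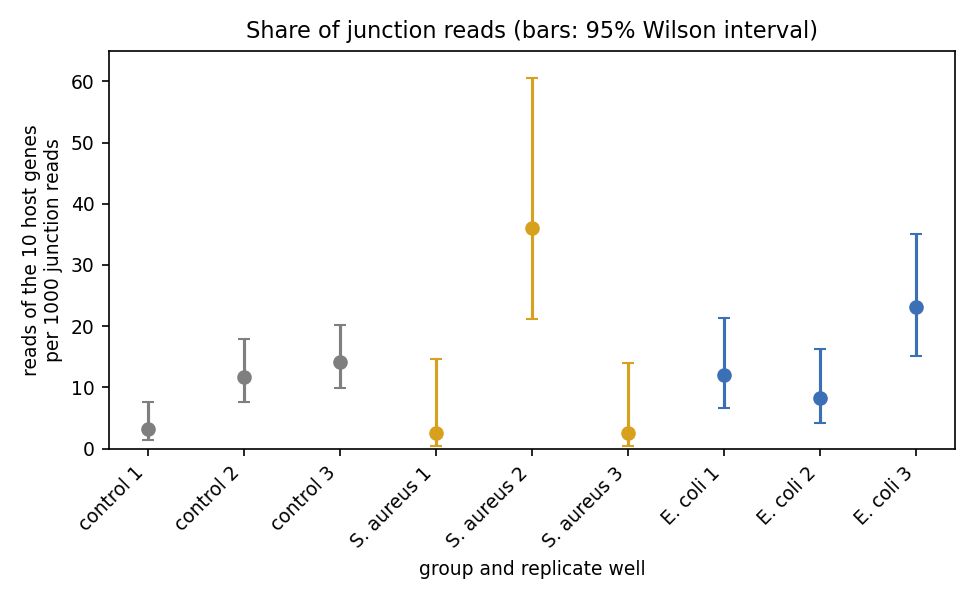
Reads of the 10 host genes per 1000 junction reads (y axis) in each replicate well (x axis), with points for wells and bars for the 95% Wilson interval of counting error. *S. aureus* well 2 stood at 36.0, whereas the other *S. aureus* wells stood at 2.60 and 2.49, and the control and *E. coli* wells lay between 3.27 and 23.1.

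By source, 20 of the 30 circRNAs were exonic (66.7%, against 68.0% of the table), 7 were sense overlapping (23.3% against 12.5%), 2 were intronic and 1 was antisense. Sense overlapping is the class of the authors' table for circles on the gene's strand, and in all 490 of them the predicted length equals the whole genomic span. The median predicted length was 379 nucleotides, against 568 in the table, and among exonic circRNAs it was 367 against 533. Most were seen sparsely: 22 occurred in 1 well only (73.3%, against 85.9% of the table), 24 in 1 group only (80.0% against 90.2%), and 8 had 1 read (26.7% against 43.8%). The circle of SLK and 1 circRNA of DIAPH3 were seen in all 3 groups (6.67%, against 1.81% of the table). These shares describe the list and were not tested.

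**Figure D2:**
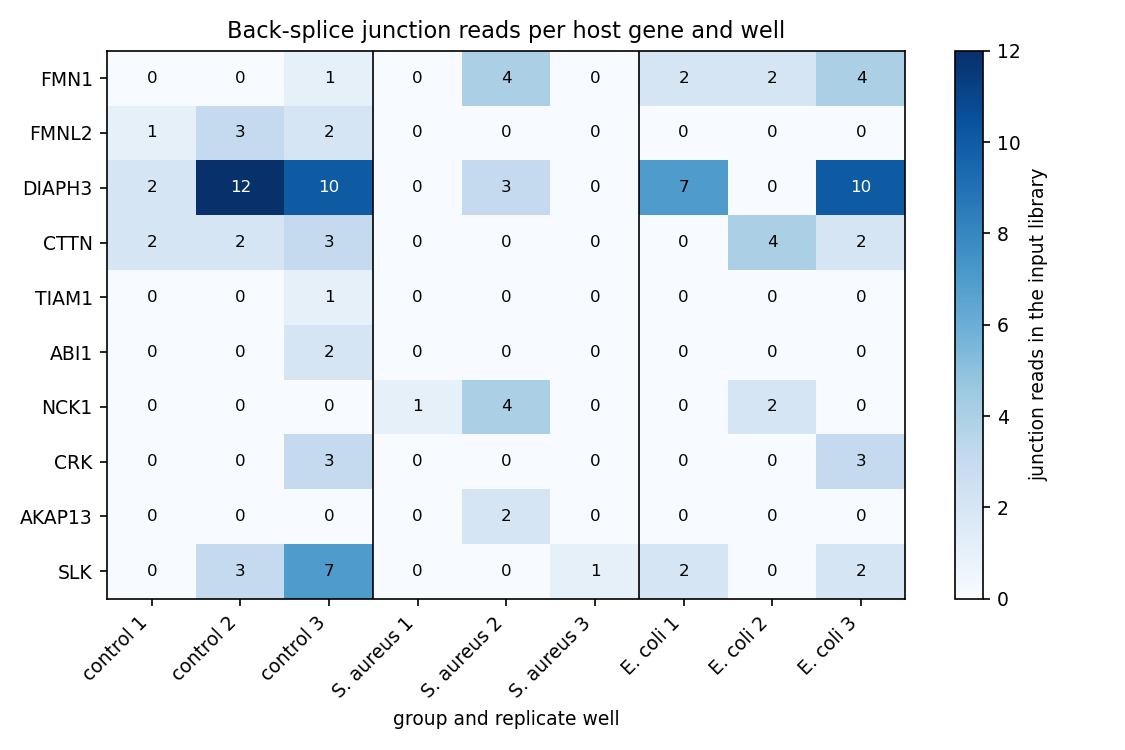
Back-splice junction reads per host gene (rows) in the input library of each well (columns), with the count printed in each cell and colour for the count. DIAPH3 had the most reads, FMNL2 had reads in control wells only, and most reads of the *S. aureus* group lay in well 2.

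The formins DIAPH3, FMN1 and FMNL2 behaved differently from each other across the wells. DIAPH3, a diaphanous-related formin that is switched on by a small GTPase, had the most circRNAs of the list, 13 on the plus strand of chromosome 12, and 44 reads. Positions are those of the bovine build bosTau9. It gave 2, 12 and 10 reads in the control wells, 0, 3 and 0 in the *S. aureus* wells and 7, 0 and 10 in the *E. coli* wells. The *E. coli* wells thus included both 0 and a count as high as in control well 3, and the groups overlapped. Per junction read, DIAPH3 was at 1.35 times the control level in *E. coli* (95% exact counting interval 0.678 to 2.61) and at 0.578 times in *S. aureus* (0.111 to 1.9).

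No circRNA of DIAPH3 dominated. The most frequent, chr12:2436832-2452607 (exonic, predicted length 293 nucleotides), had 2 reads in control well 2 and 10 in *E. coli* well 3, and none elsewhere. The shortest, chr12:2233029-2233196 (exonic, 168 nucleotides), had 2 reads in each of control well 3, *S. aureus* well 2 and *E. coli* well 1. It was the only circRNA of DIAPH3 seen in all 3 groups. The circle chr12:2348755-2355771 (exonic) had 1 read in control well 2 and 3 in control well 3. Each of 3 further circles had 4 reads in 1 well: the intronic chr12:2206425-2207234 in *E. coli* well 1, and the intronic chr12:2253956-2254141 and the sense overlapping chr12:2536107-2603278, which spans 67172 bases, in control well 2. The other 7 circles had 1 or 2 reads each. Of the 13 circles, 8 shared a back-splice end with another circRNA, so that the same splice site was joined to different partners: the end at 2395458 closed 3 circles, and the ends at 2233029, 2375971 and 2436832 opened 2 each.

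FMN1, a formin that binds alpha-catenin at adherens junctions in mouse cells, had more reads in *E. coli* than in control, 8 against 1. The control wells had 0, 0 and 1 reads, the *S. aureus* wells 0, 4 and 0, and the *E. coli* wells 2, 2 and 4. Summed over all circles of the gene, all *E. coli* wells stood above all control wells, a pattern that 8 of 2220 host genes showed (0.360%), or 4 of the 205 genes with enough reads to be tested (1.95%), and FMN1 was the only member among them. Both reads of *E. coli* well 1 lay on a circle antisense to the gene, chr10:29843543-29843852, and without it that well had 0 FMN1 reads and the groups overlapped. The ratio per junction read was 15.2, with an exact counting interval of 2.04 to 674 because control held 1 read. The reads came from different circles in different wells, so no FMN1 circRNA was seen in all 3 *E. coli* wells. The circle chr10:29731220-29738469 (exonic, 458 nucleotides) had 1 read in control well 3 and 3 in *E. coli* well 3, and the circle chr10:29533881-29555332 (exonic, 297 nucleotides) had 3 reads in *S. aureus* well 2 only. The other 4 circles, the antisense circle among them, had 1 or 2 reads, each in 1 well.

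FMNL2, a formin of lamellipodia and filopodia, was read in control only. The control wells had 1, 3 and 2 reads and all 6 treated wells had 0. Of these reads, 5 belonged to chr2:43596900-43602712 on the minus strand (exonic, 280 nucleotides), with 1, 2 and 2 reads in the control wells. Every *E. coli* well lay below every control well in 39 of 2220 host genes (1.76%) and every *S. aureus* well did so in 76 (3.42%). Among the 205 genes with enough reads to be tested these patterns were common, in 25 (12.2%) and 55 (26.8%). FMNL2 was the only member among the 39, and FMNL2 and CTTN were the members among the 76. FMNL2 had too few reads to be tested. No member was among the 25, and CTTN was the only one among the 55. In the *S. aureus* group a loss was not detectable at this depth, since 0 reads of 1147 allow up to 2.62 per 1000, above the 1.13 per 1000 of control. In *E. coli* 0 reads of 2790 allow up to 1.08 per 1000, and the control rate was 1.05 times this floor. With 3 counts over the group as the floor, the control rate per 1000000 clean input reads was 2.07 times the floor of *S. aureus*. It was 1.69 times the floor of *E. coli*. These ratios leave out the counting error of the control reads and are no lower bounds.

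**Figure D3:**
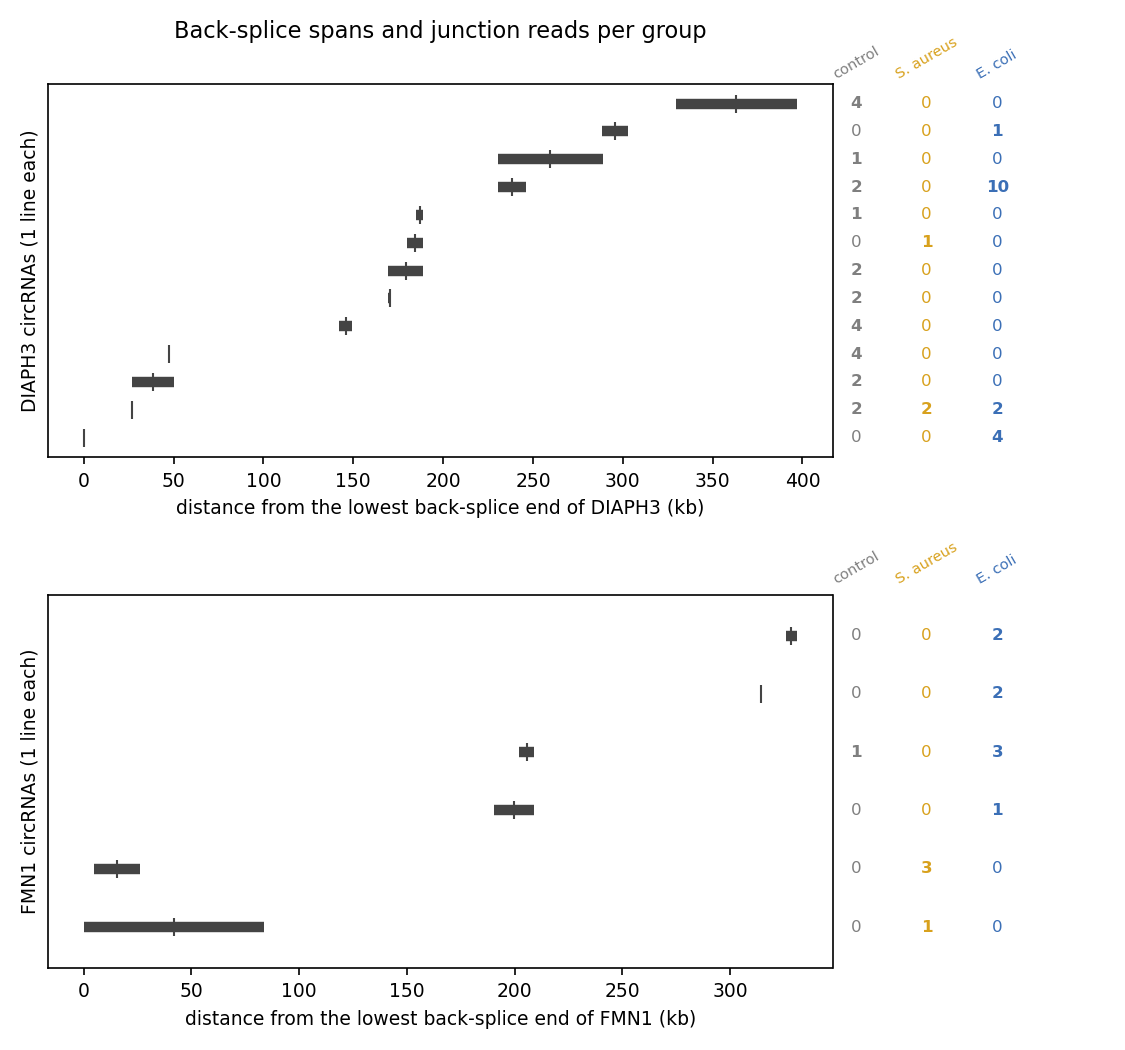
Genomic spans of the circRNAs of DIAPH3 (upper panel, 13 lines) and FMN1 (lower panel, 6 lines) as distance in kb from the lowest back-splice end of the gene, with a tick at the middle of each span and the junction reads of the control, *S. aureus* and *E. coli* groups at the right. Reads were spread over many circles, and the highest count of a group was 10, in *E. coli*, on 1 DIAPH3 circle.

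Of the branching factors, CTTN was read in every control well and ABI1 in 1 well. CTTN encodes cortactin, which binds the Arp2/3 complex and stabilizes branches, and had 2, 2 and 3 reads in control, 0, 0 and 0 in *S. aureus* and 0, 4 and 2 in *E. coli*. All 7 control reads belonged to chr29:47526233-47527007 (exonic, 222 nucleotides), which had 2 further reads in *E. coli* well 3. The 4 reads of *E. coli* well 2 belonged instead to a second circle, chr29:47529833-47530113 (sense overlapping, 281 nucleotides), which was read nowhere else. The gene total of *E. coli* thus mixed different circles in different wells. Per junction read, the 0 reads of *S. aureus* allow 2.62 per 1000, above the 1.32 per 1000 of control, so a loss was not detectable on this scale. Per 1000000 clean input reads the control rate of CTTN was 2.42 times the floor of *S. aureus*, where all libraries had fewer junction reads. This ratio leaves out the counting error of the control reads. ABI1, a subunit of the WAVE complex, had 2 reads in control well 3, on a sense overlapping circle that spans 76780 bases of chromosome 13 (chr13:17837769-17914548).

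The exchange factors were at the limit of detection in junction reads. TIAM1, which loads Rac, had 1 read in control well 3, on chr1:4271793-4296946 (exonic, 1595 nucleotides). AKAP13, which also anchors protein kinase A, had 2 reads in *S. aureus* well 2, on chr21:16509737-16519093 (exonic, 1352 nucleotides). Neither was read in another well.

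NCK1 and CRK are SH2 and SH3 adaptors that link phosphorylated receptors and focal adhesions to actin regulators. NCK1 had no read in control, 1, 4 and 0 in the *S. aureus* wells and 0, 2 and 0 in the *E. coli* wells, all on chr1:132236202-132236445 on the minus strand (exonic, 244 nucleotides). A total absence in control beside reads in at least 2 *S. aureus* wells was seen in 13 of 2220 host genes (0.586%). The rate of NCK1 in *S. aureus* was 7.70 times the floor of control, 0.566 per 1000, per junction read. Per 1000000 clean input reads it was 1.61 times the floor. Both ratios leave out the counting error of the *S. aureus* reads and are no lower bounds. Of the 5 reads 4 were in well 2, and the remaining read, below the floor of 3 counts, gives no fold. CRK had 3 reads in control well 3 and 3 in *E. coli* well 3, each on its own circle on the minus strand of chromosome 19. The control reads lay on chr19:22586484-22658916 (sense overlapping, 72433 bases), which also overlaps circRNAs of MYO1C and PITPNA, and the *E. coli* reads on chr19:22567645-22567806 (sense overlapping, 162 bases).

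SLK, a kinase that phosphorylates ezrin, had a single circRNA, chr26:24551820-24555665 (exonic, 364 nucleotides), which had the most reads of any circle in the list. It gave 0, 3 and 7 reads in control, 0, 0 and 1 in *S. aureus* and 2, 0 and 2 in *E. coli*. Each group held a well with no read, and the groups overlapped. Per junction read it was at 0.760 times the control level in *E. coli* (0.174 to 2.63) and at 0.462 times in *S. aureus* (0.0106 to 3.25).

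To ask whether any of these differences exceeded the spread between wells, junction reads were summed per host gene and tested with edgeR's quasi-likelihood test over 205 host genes that had 2 reads or more in 3 or more libraries. Of the 10 genes, CTTN, DIAPH3, FMN1 and SLK met this filter, and none was called at an adjusted p under 0.05. Over all genes tested 1 was called between *S. aureus* and control (0.488%), 0 between *E. coli* and control (0%) and 1 between *E. coli* and *S. aureus* (0.488%). At the thresholds of the study's methods (at least a 2-fold change with an unadjusted p up to 0.05), 39 genes passed between *S. aureus* and control (19.0%), 16 between *E. coli* and control (7.80%) and 22 between *E. coli* and *S. aureus* (10.7%), again with none of the 4. Of the genes between *S. aureus* and control 38 were lower and 1 was higher, but with total junction reads and no TMM scaling 3 were lower and 5 higher, and with clean input reads 67 were lower and 1 higher. Between *E. coli* and control 15 were lower and 1 was higher (10 and 4 with total junction reads and no TMM scaling), and between *E. coli* and *S. aureus* 1 was lower and 21 were higher (9 and 5). The spread was large, with a common biological coefficient of variation of 0.928.

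Between *S. aureus* and control the log2 fold change was -4.03 ± 2.15 (SE) for CTTN (adjusted p = 0.253), -2.20 ± 1.13 for DIAPH3 (adjusted p = 0.248), -2.28 ± 1.80 for SLK (adjusted p = 0.419) and 2.30 ± 1.82 for FMN1 (adjusted p = 0.419). The fitted value of CTTN is no bound, since all *S. aureus* wells were at 0. The median over all 205 genes was -1.93, beside which DIAPH3 and SLK lay close by, CTTN lower and FMN1 higher. Single wells decided these places: without *S. aureus* well 2 DIAPH3 was at -5.78 beside a median of -2.47, without *S. aureus* well 3 SLK was at -4.49 beside -2.78, and without control well 3 SLK was at -1.08 beside -1.28. In the fit of all wells the median moved to -0.41 with total junction reads and no TMM scaling and to -2.47 with clean input reads. The positive value of FMN1 rests on *S. aureus* well 2, and without that well it was -1.70.

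Between *E. coli* and control, FMN1 had the largest value of the 4, a log2 fold change of 2.83 ± 1.77 (SE, adjusted p = 0.751) beside a median of -0.54 over all genes. Without control well 3, which held the only control read, it was 4.53. The values were 0.068 ± 1.52 for CTTN (adjusted p = 0.984), -0.24 ± 0.97 for DIAPH3 (adjusted p = 0.978) and -0.90 ± 1.56 for SLK (adjusted p = 0.928). The sign of DIAPH3 turned with total junction reads and no TMM scaling (0.47). Between *E. coli* and *S. aureus* the values were 4.10 ± 2.16 for CTTN (adjusted p = 0.356), 1.95 ± 1.14 for DIAPH3 (adjusted p = 0.356), 1.39 ± 1.86 for SLK (adjusted p = 0.741) and 0.52 ± 1.61 for FMN1 (adjusted p = 0.925), beside a median of 1.18. The sign of FMN1 in this comparison turned with the same scaling (-0.31). The comparisons share their groups and are not independent.

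The same test per circRNA kept 79 circRNAs, of which 3 were members: the circle of SLK, the short circle of DIAPH3 and the exonic circle of CTTN. None was called, and neither was any other circRNA in any of the 3 comparisons (0%). At an unadjusted p under 0.05 edgeR had 13, 7 and 12 circRNAs for *S. aureus* against control, *E. coli* against control and *E. coli* against *S. aureus*, and all of these also had a fold change of at least 2 (16.5%, 8.86% and 15.2%). No member was among them. In the study's own lists of the most changed circRNAs, the exonic circle of CTTN stands as lower and the circle of NCK1 as higher in *S. aureus*. The exonic circle of FMNL2 stands there as lower in *E. coli*. The circles of NCK1 and FMNL2 did not meet the filter used here and were not tested. DESeq2 called 0 host genes and 0 circRNAs in each of the 3 comparisons. Of the 3 members, the exonic circle of CTTN came closest to a call in edgeR's test, between *S. aureus* and control. Its log2 fold change there was -3.95 ± 2.09 (SE, adjusted p = 0.247).

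m6A peaks were listed on 13 of the 30 circRNAs (43.3%, against 27.7% of the table), and each of the 10 genes had at least 1. The control wells had 19, 14 and 14 peaks on these genes, the *S. aureus* wells 0, 0 and 0, and the *E. coli* wells 9, 9 and 6. As a share of all peaks this was 1.26% in control and 1.11% in *E. coli*. The share of *S. aureus* was 0 of 84 peaks, which allows up to 3.57%, so an absence from these genes was not detectable at this depth. Peaks of all wells on the same circRNA that share at least 1 base were joined to 24 regions, numbered along the genome within each gene, among 1695 regions in all. Of the 24, 16 lay on sense overlapping circRNAs (66.7%, against 18.6% of all regions), and 7 of these on the long circle of FMN1 alone.

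**Figure D4:**
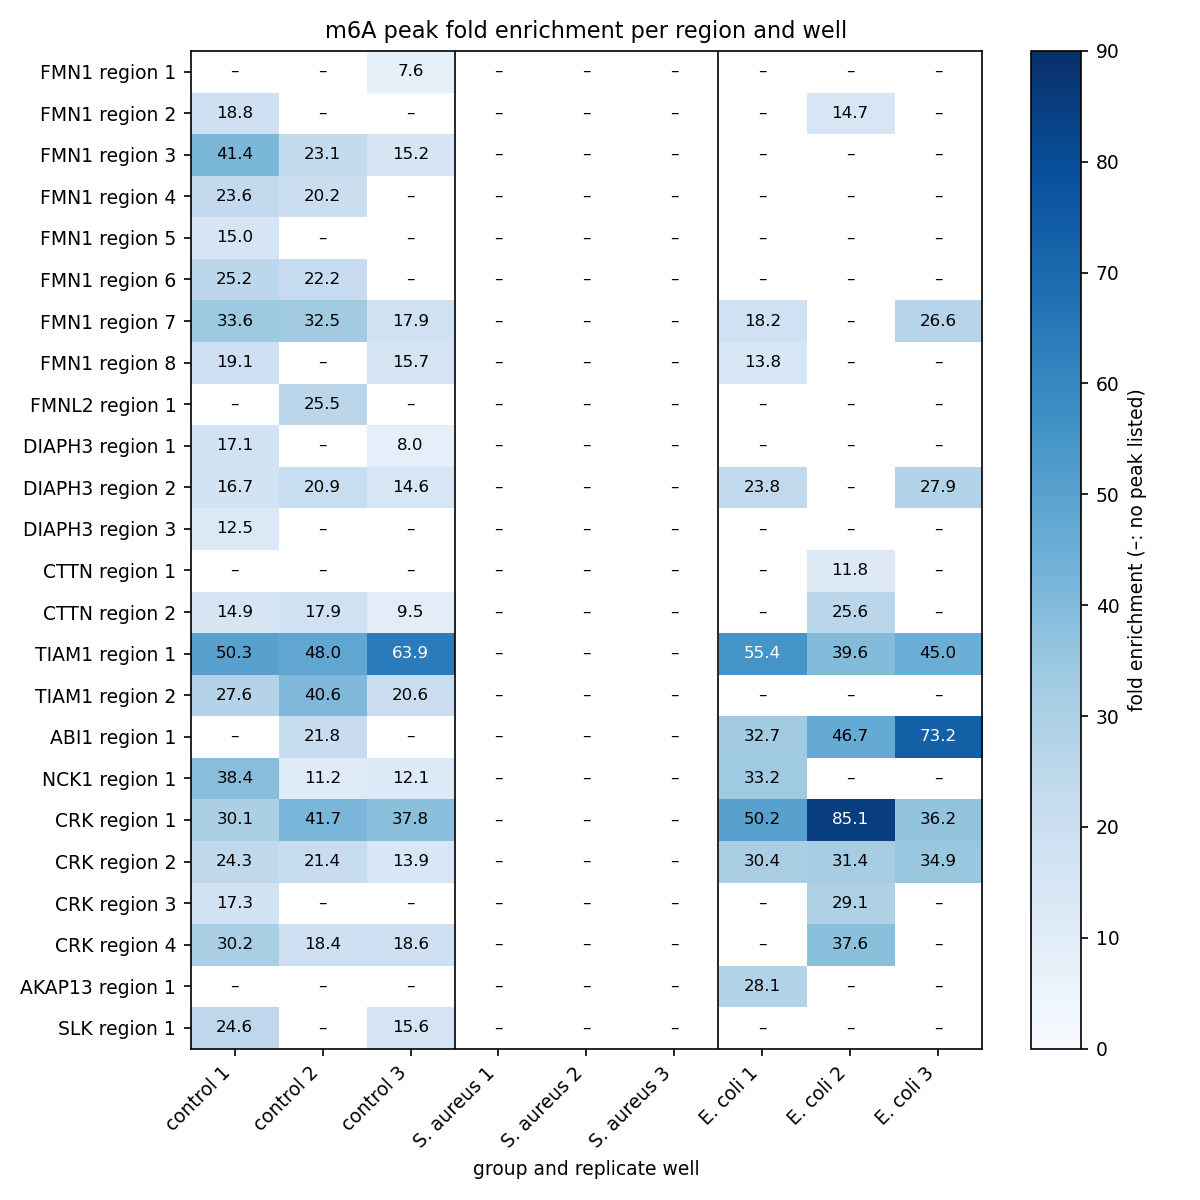
Fold enrichment of IP over input (cell values and colour) for the 24 peak regions (rows) in each well (columns), with a dash where no peak was listed. TIAM1 region 1 and CRK regions 1 and 2 had a peak in all control and all *E. coli* wells, whereas the *S. aureus* wells had none in any region.

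Of the regions, 10 had a peak in all 3 control wells and in no *S. aureus* well (41.7%), against 52.9% of all regions. 2 had a peak in all 3 control wells and in no *E. coli* well (8.33%, against 10.6% of all), and 3 had a peak in all 3 wells of both groups (12.5%, against 25.5%). These shares were near or below those of all regions. The false discovery rates that the authors' tables give were 14.81% to 100% for the control peaks and 1.54% to 8.14% for the *E. coli* peaks on these genes. At a limit of 5%, 0 of 47 control peaks and 20 of 24 *E. coli* peaks would remain, so that presence and absence depend on the limit.

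TIAM1 had the strongest control peaks of the list although its circle had 1 junction read. Region 1, at the first bases of the circle (chr1:4271793-4272766), had fold enrichments of 50.27, 48.00 and 63.93 in control and 55.36, 39.58 and 45.03 in *E. coli*. The means were 54.1 ± 8.62 and 46.7 ± 8.01 (SD, n = 3), the groups overlapped, and the exact permutation test gave p = 0.4 (two-sided, adjusted p = 0.4 over 3 regions). The scores of the same peaks, which grow as the peak's p falls, did not overlap between groups. They were 2236, 1733 and 3037 in control and 242, 289 and 195 in *E. coli*. The scores of CRK region 1 did not overlap either (382, 533 and 648 in control, 174, 324 and 150 in *E. coli*), whereas those of CRK region 2 did. The share of all regions with such scores was not counted. Region 2, further inside the circle (chr1:4289437-4289884), had 27.61, 40.65 and 20.62 in control and no peak in *E. coli*.

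CRK held the other regions marked in both groups, all on its long circle. Region 1 (chr19:22586484-22587126) had fold enrichments of 30.10, 41.74 and 37.76 in control and 50.25, 85.07 and 36.19 in *E. coli* (exact permutation p = 0.3, adjusted p = 0.4). Region 2 (chr19:22595818-22599369) had 24.32, 21.44 and 13.89 in control and 30.35, 31.37 and 34.94 in *E. coli*, with all *E. coli* wells above all control wells. The means were 19.9 ± 5.39 and 32.2 ± 2.41 (SD, n = 3), and p = 0.1, the smallest this exact two-sided permutation test can give (adjusted p = 0.3). The median fold enrichment of all peaks of a well was also higher in *E. coli* (31.38 to 36.92) than in control (17.08 to 24.63), and its part in the difference was not tested. How many of the 432 regions with a peak in all wells of both groups separate in this way was not counted. Region 4, at the far end of the circle, had 30.25, 18.41 and 18.56 in control and 37.65 in *E. coli* well 2, and it lies also within an exonic circRNA of PITPNA that has a peak.

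ABI1 showed the reverse distribution, with a peak in every *E. coli* well and in 1 control well. Region 1 (chr13:17888925-17890089) had fold enrichments of 32.68, 46.69 and 73.20 in *E. coli* and 21.78 in control well 2. Over the table, 454 of 1695 regions had a peak in all 3 *E. coli* wells (26.8%). Of these, 3 had none in a control well, and ABI1 was not among the 3 because of its control peak. How many had a peak in at most 1 control well was not counted. No junction read of its circle was seen in *E. coli*. The study lists a peak elsewhere on this circle as higher in *S. aureus*, whereas the peaks by well used here had none on it in that group.

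Among the formins, FMN1 had the most regions, 8, and 7 of them lay on the sense overlapping circle chr10:29529342-29613121, whose only read was in *S. aureus* well 2. Region 3 (chr10:29569442-29572722) had 41.40, 23.07 and 15.20 in control and no peak in *E. coli*, and with region 2 of TIAM1 it made up the regions found in all control wells and no *E. coli* well. Region 7, which reaches the end of the circle, had 33.60, 32.55 and 17.85 in control and 18.23 and 26.62 in *E. coli* wells 1 and 3. FMN1 thus had more junction reads in *E. coli* than in control, whereas its peaks were 7, 4 and 4 in control and 2, 1 and 1 in *E. coli*. Peaks on all genes numbered 3727 in the control wells and 2155 in the *E. coli* wells. Most FMN1 regions lay on a circle without a read in either group, so these reads and peaks mostly describe different circles. Region 2 of DIAPH3, on its long sense overlapping circle (chr12:2564979-2565512), had 16.71, 20.88 and 14.57 in control and 23.76 and 27.90 in *E. coli* wells 1 and 3. FMNL2 had a peak in control well 2 only, on its sense overlapping circle and not on the circle that held most of its reads.

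Region 2 of CTTN covered the whole circle chr29:47529833-47530113, with 14.92, 17.90 and 9.48 in control, where this circle had no read, and 25.63 in *E. coli* well 2, where it had 4. The exonic CTTN circle, read in every control well, had a peak in *E. coli* well 2 only. NCK1 region 1 likewise covered its whole circle, with 38.36, 11.15 and 12.05 in control and 33.22 in *E. coli* well 1. These are wells without an NCK1 read, and the wells with NCK1 reads had no peak. AKAP13 had a peak in *E. coli* well 1 (28.08) and SLK in control wells 1 and 3 (24.65 and 15.55).

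**Figure D5:**
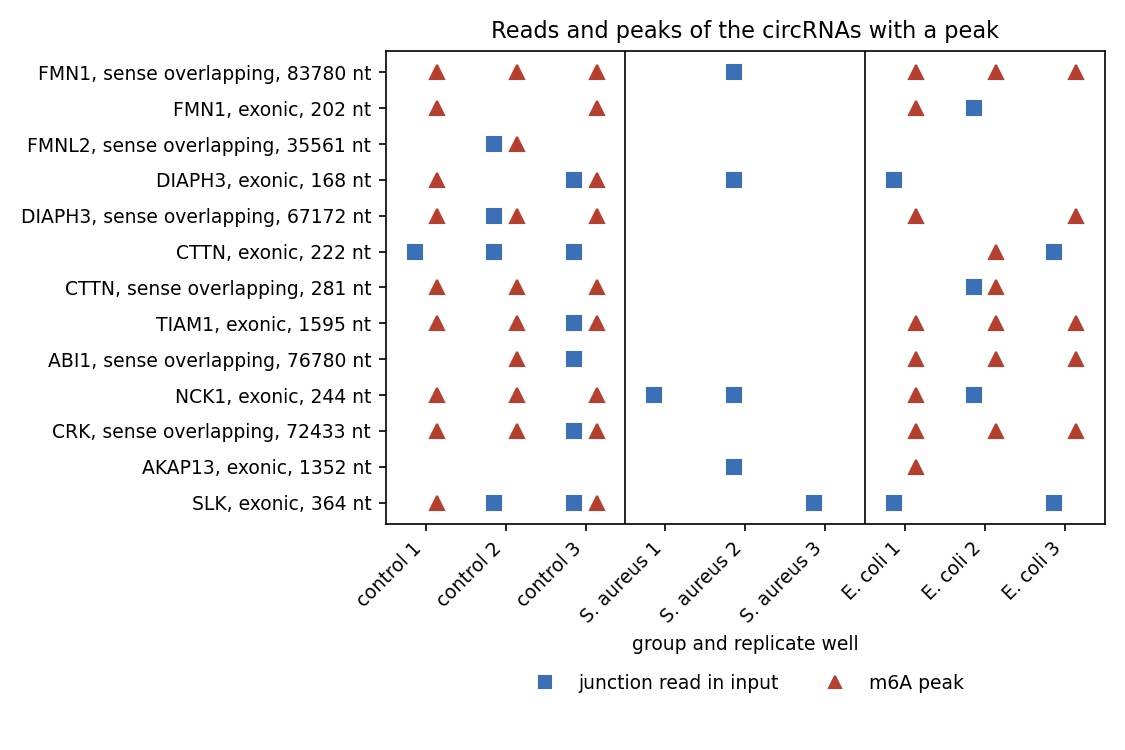
Wells (columns) in which each of the 13 circRNAs with a peak (rows, with class and predicted length in nucleotides) showed a junction read (input library, squares) or an m6A peak (IP library, triangles). Squares and triangles met in 6 pairs of circle and well in control and in 1 in *E. coli*.

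Reads and peaks seldom fell in the same well. Counting each circle in each well, 26 pairs had a peak in control, and 6 of them had a junction read of that circle in the same well (23.1%, against 23.3% over all circRNAs). In *E. coli* it was 1 of 19 (5.26%, against 13.1%), the CTTN circle in well 2. Whether the reads under a peak came from the circle or from the linear transcript of the same exons was not tested.

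The rest of the pathway was sparse too, and the members were chosen with these tables known. Of 11 other formins 5 had a circRNA, with 4 reads in control, 2 in *S. aureus* and 3 in *E. coli*, led by DIAPH2 with 4 reads in all and FHOD1 with 2. Of 31 other genes of the Arp2/3 complex and its activators 4 had a circRNA (7, 0 and 8 reads), and among them were CYFIP1 and NCKAP1, partners of ABI1 in the WAVE complex, with 6 reads each. None of the Arp2/3 subunits had a circRNA. Of 13 other SH2 and SH3 adaptors BCAR3 alone had a circRNA, with 1 read in control. Of 16 other kinases of actin control 7 had one (13, 1 and 10 reads, led by PTK2 with 6 and TESK2 with 5), and of 21 genes of filament severing, capping and ERM linkers 3 had one (5, 2 and 6 reads: SSH2, RDX and EZR). None of these other host genes met the filter of the test.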

How the data were processed

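Of 9 wells of MAC-T cells, 3 per group, each gave an input and an IP library. The authors used cutadapt 1.9.3 for trimming, STAR 2.5.1b for alignment to the bovine build bosTau9 and DCC for circRNA detection, and deposited junction counts per input library, used here as raw counts, beside normalized values that were not used. For each IP library the authors deposited peaks with a ratio (fold enrichment), a false discovery rate in percent and a score. The peak caller's version and use of strand are not given in the sources used here. Positions are given counted from 1.

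Rows were selected by host gene symbol, and the 10 symbols matched the reference by name and chromosome. Host gene and circRNA counts were tested with edgeR 4.0.16 in R 4.3.3 (glmQLFit and glmQLFTest, TMM on total junction reads, all 3 groups in 1 fit, Benjamini-Hochberg adjustment), with DESeq2 1.42.0 as an alternative. The fit was run on simulated data, with TMM only at a greater depth than here, so TMM at this depth was not tested. Counting intervals and exact permutation tests used scipy 1.17.1. Clean input reads are the library totals of the study. P-values measure only the spread between these wells. All 10 genes are named, and values are given by well for each circRNA with at least 3 reads or reads in at least 2 wells and each region with a peak in all 3 wells of a group. Of other lists up to 2 genes with most reads are named, or all 3 where a list had 3. Members and lists were chosen with earlier results of these data known. No genome was used here, so no sequence is shown. The results of 1 further gene list are not reported here.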

Additional observations from a re-analysis of the deposited data

How the results depend on the processing

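Junction reads were few, and no member passed an adjusted p of 0.05 under any alternative (lowest 0.0735). Of 319 alternative values of single genes, circRNAs and regions, 300 kept their direction, and the cause of the others was not tested. These values are not independent. SLK counted both as a gene and as its 1 circle, and the alternative for the 3 regions equalled the main value. Some settings left out a well of the group not compared. Between *S. aureus* and control, edgeR called 6 host genes with clean input reads as library size, and 0 were called with DESeq2 or with no filter on low counts, in place of 1. With total junction reads and no TMM the 1 call was a higher gene, in place of a lower one. In turn, 0 were called between *E. coli* and *S. aureus* with total junction reads and no TMM, with DESeq2, with no filter or with only the 2 groups compared, and 0 to 1 when each well was left out. Per circRNA this comparison gave 1 call with only the 2 groups compared. Between *E. coli* and control, the log2 fold change of DIAPH3 was 0.47 with total junction reads and no TMM (-0.25 with clean input reads) and that of CTTN -0.092 with no filter. Between *E. coli* and *S. aureus*, FMN1 was at -0.31 with total junction reads and no TMM (1.19 with clean input reads), and the short DIAPH3 circle was at 0.25 with clean input reads and 0.24 with no filter. Leaving out each well gave ranges of -1.70 to 4.12 for FMN1 between *S. aureus* and control, where DIAPH3 ranged from -5.78 to -1.26 and SLK from -4.49 to -1.08. They were, between *E. coli* and *S. aureus*, -0.31 to 4.59 for FMN1, 1.12 to 5.61 for DIAPH3 and 0.50 to 3.61 for SLK. Between *E. coli* and control the ranges were 2.42 to 4.53 for FMN1, -0.91 to 0.40 for DIAPH3, -1.03 to 0.60 for CTTN, -1.40 to 0.29 for SLK, -1.25 to 0.18 for the SLK circle and -0.087 to 1.00 for the short DIAPH3 circle, which ranged from -1.47 to 0.12 between *E. coli* and *S. aureus*. The log2 ratio of member reads per well to control ranged from -4.17 (without *S. aureus* well 2) to -1.32 for *S. aureus* and from -0.92 to 0.093 (without control well 3) for *E. coli*. Of the 10 regions in all control and no *S. aureus* wells, 2 remained at a fold enrichment at or above the control median of 21.83 and 0 at a false discovery rate up to 5%. For the 2 regions absent from *E. coli*, these limits left 0 and 0, at least 2 of 3 control wells gave 6, and leaving out each well gave 2 to 4.

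Whether the well numbers pair the wells could not be decided, since most genes had few reads per well. Of 9 same-number pairs 2 had correlated deviations over 0.1, as had 2 of 18 other pairs, and same-number pairs ran from -0.19 to 0.12. With the replicate block, 1, 0 and 1 host genes and 0 circRNAs were called, and DIAPH3 (0.15) and CTTN (-0.34) changed sign between *E. coli* and control.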

Other observations

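Peaks also lay on other genes of actin control, which stand in no comparison of the text above. JMY, an activator of the Arp2/3 complex that also nucleates actin itself, had 6 regions, with 5, 6 and 5 peaks in the control wells and 4, 5 and 5 in the *E. coli* wells. ROCK2, a kinase of actin contractility, had 7 regions, with 7, 3 and 4 peaks in control and 3, 3 and 0 in *E. coli*. RDX, which encodes the membrane linker radixin, had 2 peaks in every control and every *E. coli* well. None of these genes had a peak in an *S. aureus* well, where each library listed 27 to 29 peaks in all. DSP, which encodes the desmosomal protein desmoplakin, was the only gene of the lists used here with peaks in that group, 1 in each of the 3 *S. aureus* wells, beside 6, 6 and 5 in control and 5, 4 and 5 in *E. coli*. These genes were chosen after their values were seen.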
